A study of Homo sapiens with 4 samples.

Results

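The over-covered chromosome segments of the HUDEP-2 line are stretches of the genome that carried more bisulfite sequencing reads per CpG than the rest of the autosomes. They were taken as non-overlapping bins of 5 Mb on chromosomes 1 to 22 whose mean coverage, over CpGs listed in all 4 libraries, was at least 1.3 times the median over autosomal bins in the DMSO library. This ratio is called relative coverage below. Of 570 autosomal bins, 88 met the rule, which is 440 Mb, and 427 bins between 0.9 and 1.1 served as the reference. Inside the over-covered bins lay 348320 windows of 1 kb with at least 3 shared CpGs, out of 2431792 such windows on chromosomes 1 to 22 and X, and the reference bins held 1807482. The over-covered bins lay mainly on chromosomes 6, 8, 18, 19 and 21.

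HUDEP-2 is a human erythroid progenitor line derived from umbilical cord blood, kept growing with doxycycline and able to mature in culture, and it mainly makes adult haemoglobin. There was 1 whole-genome bisulfite library from each of 4 groups. Non-differentiated cells were untreated. The other libraries came from cells taken through a growth stage (4 days) and a maturation stage (2 days) of differentiation. These cells were given 0.1% DMSO, alone or with an inhibitor of DNMT1 or of EED, from expansion on. The labels give no compound name or dose for either inhibitor, and they record raised fetal haemoglobin for both treatments. All 4 groups share the same line and the doxycycline of the medium. Without replicate libraries, every difference here is between 2 libraries, and both inhibitor comparisons share the DMSO library. Summed over listed CpGs, coverage was 672115916 to 741744952 per library, where a read counts at each CpG it spans. The mean coverage was 27.2 to 29.7 reads per CpG. Where 4 values follow each other below, they stand for the untreated (non-differentiated), vehicle (DMSO), DNMT1 inhibitor and EED inhibitor libraries, in this order.

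DNA methylation at CpGs is copied onto the new strand after replication by DNMT1, so cells that divide without this enzyme lose methylation. EED is a core subunit of Polycomb repressive complex 2, which places the trimethyl mark on lysine 27 of histone H3. Immortalised lines often carry extra copies of chromosomes or chromosome arms. Read depth over a segment is commonly used to follow its number of copies, and it also moves with repeats and with sequence composition. At imprinted genes the 2 parental copies differ, with one methylated and the other not, so the level over such a start depends on how many copies of each are present. No karyotype was used here, so a number of copies is not given for any segment.

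Reference sequence from hg38 (plus strand) is shown for 5 stretches of 240 bases, chosen from the windows described further on as those outside annotated exons with the most measured CpGs. Capitals mark the CpGs listed in all 4 libraries, and every CpG in these stretches was listed. The first 2 lie at imprinted starts in over-covered bins and the third at an imprinted start in a reference bin. The other 2 lie in a called promoter on chromosome 6 and in a window called between the EED inhibitor and DMSO on chromosome 18. By annotation the FAM50B stretch overlaps introns of the lncRNAs ENSG00000238158 and ENSG00000233068, the ZNF331 stretch an intron of ZNF331, the DIRAS3 stretch introns of DIRAS3 and GNG12-AS1, and the APOBEC2 stretch an intron of OARD1.
FAM50B start, chr6:3848919-3849158: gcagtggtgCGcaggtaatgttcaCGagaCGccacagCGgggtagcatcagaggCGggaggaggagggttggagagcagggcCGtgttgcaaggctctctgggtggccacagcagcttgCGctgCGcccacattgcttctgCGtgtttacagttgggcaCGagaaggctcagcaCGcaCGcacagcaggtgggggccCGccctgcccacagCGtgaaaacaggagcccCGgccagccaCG
ZNF331 start, chr19:53537889-53538128: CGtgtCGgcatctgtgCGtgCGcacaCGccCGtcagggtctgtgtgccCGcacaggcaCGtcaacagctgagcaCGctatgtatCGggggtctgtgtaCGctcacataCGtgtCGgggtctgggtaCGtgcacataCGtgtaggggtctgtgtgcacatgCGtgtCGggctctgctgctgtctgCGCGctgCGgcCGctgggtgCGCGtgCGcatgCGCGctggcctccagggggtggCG
DIRAS3 start, chr1:68050236-68050475: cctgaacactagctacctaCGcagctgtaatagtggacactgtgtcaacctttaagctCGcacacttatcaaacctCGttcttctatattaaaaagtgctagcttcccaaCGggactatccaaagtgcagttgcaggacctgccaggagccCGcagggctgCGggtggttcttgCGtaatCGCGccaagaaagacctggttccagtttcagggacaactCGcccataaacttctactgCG
APOBEC2 promoter, chr6:41052473-41052712: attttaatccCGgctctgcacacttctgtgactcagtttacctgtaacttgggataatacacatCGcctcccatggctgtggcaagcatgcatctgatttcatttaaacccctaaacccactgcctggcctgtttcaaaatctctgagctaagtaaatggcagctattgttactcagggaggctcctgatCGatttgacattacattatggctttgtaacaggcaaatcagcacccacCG
ZNF521 intron, chr18:25282324-25282563: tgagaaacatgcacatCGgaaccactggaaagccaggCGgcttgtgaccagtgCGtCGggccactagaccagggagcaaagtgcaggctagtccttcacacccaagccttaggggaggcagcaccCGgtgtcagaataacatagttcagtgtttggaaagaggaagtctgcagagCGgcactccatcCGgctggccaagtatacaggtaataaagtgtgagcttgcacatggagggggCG
The level, as the share of reads that were methylated over the 16 CpGs of the FAM50B stretch, was 56.1%, 62.9%, 39.1% and 57.7%. Over the 27 CpGs of the ZNF331 stretch it was 65.7%, 46.9%, 43.4% and 52.8%. Over the 11 CpGs of the DIRAS3 stretch it was 56.7%, 46.5%, 23.7% and 45.6%. The 4 CpGs of the APOBEC2 stretch were at 96.05%, 94.95%, 21.14% and 94.05%. The 8 CpGs of the ZNF521 stretch were at 47.5%, 35.6%, 14.9% and 69.0%. The DNMT1 inhibitor library was the lowest of the 4 in each stretch, and by the least against DMSO at ZNF331.

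On chromosome 6, 33 of 35 bins were over-covered, with a median relative coverage of 1.45 in the DMSO library and a range from 1.31 to 1.53. On chromosome 8, 28 of 30 bins were over-covered, from 1.37 to 3.00. Chromosome 21 gave 7 of 9 bins, from 1.45 to 1.92, and chromosome 19 gave 5 of 12, from 1.31 to 1.38. Chromosome 18 gave 6 of 17, from 1.302 to 1.347. These values chose the bins and are given as a description. Chromosomes 18 and 19 sat on the threshold. The lowest bin inside was at 60 to 65 Mb of chromosome 18, at 1.302, and the highest outside was at 50 to 55 Mb of the same chromosome, at 1.298. Over all bins of chromosome 18 the median was 1.29, and over all of chromosome 19 it was 1.29. On both chromosomes the bins just under 1.3 thus differed little in relative coverage from those chosen.

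**Figure D1:**
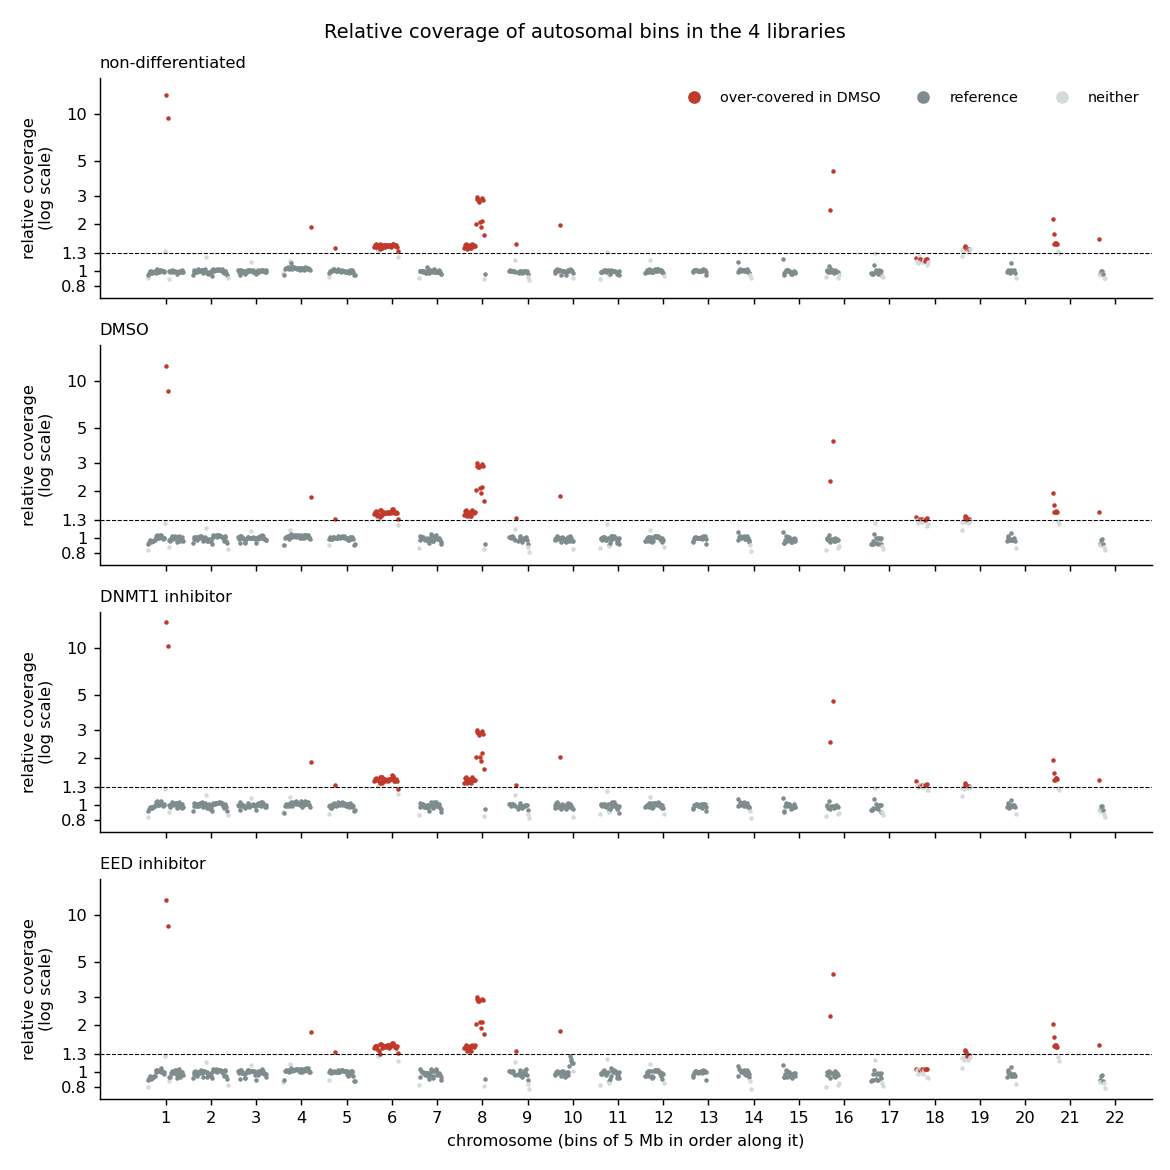
Relative coverage (log axis) of each 5 Mb autosomal bin, in order along each chromosome, in the 4 libraries; colours give the class fixed in the DMSO library and the dashed line marks 1.3. The bins chosen on chromosomes 6, 8, 19 and 21 stand above 1 in each library, while chromosome 18 has a median over all its bins of 1.29 with DMSO and 1.03 with the EED inhibitor.

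The other libraries were not used for the choice. Of the 88 bins, 82 also reached 1.3 in non-differentiated cells, 87 did under inhibition of DNMT1 and 80 under that of EED, and the medians were 1.45, 1.45 and 1.46. Over the chosen bins alone, the medians of chromosomes 6, 8 and 21 lay between 1.440 and 1.496 in every library, and those of chromosome 19 were 1.388, 1.344, 1.337 and 1.336. Chromosome 18 differed most between libraries. Its 6 over-covered bins had a median of 1.32 with DMSO and 1.34 with the DNMT1 inhibitor, 1.18 in the non-differentiated library and 1.04 with the EED inhibitor. With the EED inhibitor, relative coverage was at most 0.9 times that with DMSO in 17 of 17 bins of chromosome 18 and in no other autosomal bin. In the opposite direction, 7 bins at 100 to 135 Mb of chromosome 10 had a median of 0.96 with DMSO and 1.14 with the EED inhibitor, and 6 of them are reference bins. No other bin was at 1.1 times the DMSO value or more. Treatment and the line's chromosome content in each culture cannot be told apart with 1 library per group.

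In 9 of the 88 bins the high mean rested on few CpGs. These bins lie on chromosomes 1, 4, 5, 9, 10, 16 and 22, and the median coverage of their CpGs was 0.88 to 1.15 times the autosomal median, under 1.2. In the bin at 125 to 130 Mb of chromosome 1 the relative coverage was 12.6, with 89.7% of its reads on CpGs covered more than 10 times the library median. The same share was 84.9% at 140 to 145 Mb of chromosome 1, 76.6% at 45 to 50 Mb of chromosome 16 and 59.8% at 30 to 35 Mb of chromosome 16. The other 79 bins had a median coverage of 1.2 or more and are all on chromosomes 6, 8, 18, 19 and 21. This split was made after the data were seen, and the values below are given with and without the 9 bins where they differ.

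Chromosome 8 was not raised evenly. In pieces of 100 kb its relative coverage, as a median over CpGs, was 1.41 with DMSO at 80 to 83.1 Mb. It was 4.08 over the next 0.6 Mb, 2.93 from 83.7 to 106.6 Mb, 2.07 over 0.5 Mb and 2.96 up to 110.8 Mb. It then fell to 1.95 up to 124.4 Mb and returned to 2.96 up to 137.3 Mb. Beyond 137.3 Mb it was 0.85. The stretch at 83.1 to 83.7 Mb was the highest and that beyond 137.3 Mb the lowest of these in all 4 libraries, with 4.13, 4.08, 4.02 and 4.16 in the first and 0.88, 0.85, 0.86 and 0.86 in the second. Before 80 Mb, 738 pieces of 1.2 to 1.7 had a median of 1.44 with DMSO, and 62 pieces were under 1.2. The bin at 135 to 140 Mb straddles the last step, with a mean of 1.71 and a median of 1.23. The erythrocyte carbonic anhydrase genes CA1 and CA2 and their neighbour CA3 lie in the high stretch, at a local relative coverage of 3.26, 3.11 and 3.11. So does ZFPM2, a cofactor of GATA factors, at 2.74.

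**Figure D2:**
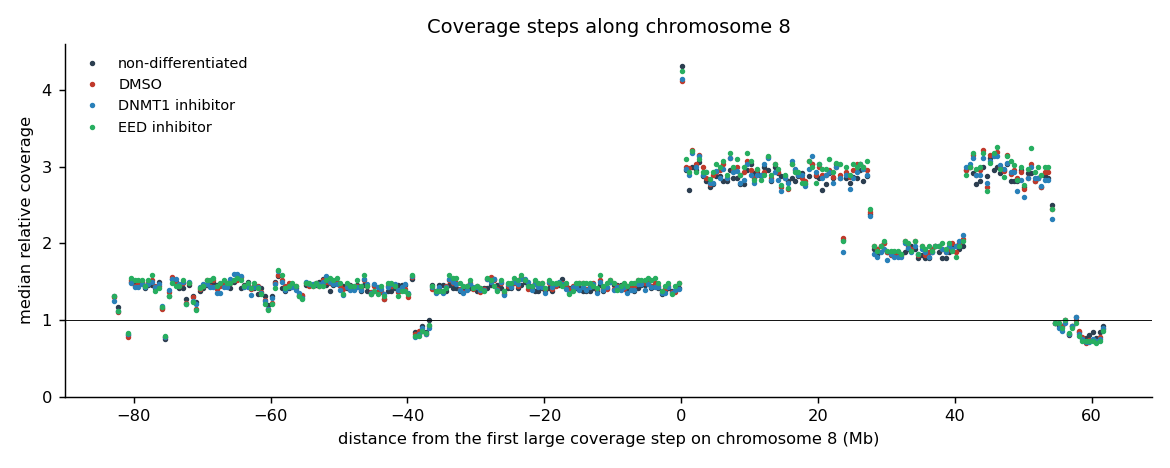
Median relative coverage along chromosome 8 in pieces of 500 kb for the 4 libraries, against the distance in Mb from the start of the highest piece. Coverage lies near 1.44 in most pieces before it, with some lower, then at about 2.93, 1.95 and 2.96, and at 0.85 after the last step. The 4 libraries lie on top of each other.

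Methylation in the over-covered bins was close to that of the reference in each library, and slightly lower in the 3 libraries without the DNMT1 inhibitor. The level over all windows was 59.3%, 57.9%, 16.5% and 56.8%. In the reference bins it was 61.9%, 60.5%, 16.6% and 59.5%. The 95% Wilson interval of the DMSO level was 57.931% to 57.947% in the over-covered bins and 60.461% to 60.470% in the reference, and such intervals cover counting error only. Bins differed far more from each other. In the DMSO library the reference bins ran from 35.8% to 80.9% with quartiles of 53.4% and 64.2%, and the over-covered bins ran from 38.1% to 72.6% with quartiles of 51.7% and 61.4%. The gap of 2.53 points in that library is thus small against the spread between bins, which are not replicates, and no test was made. Without the 9 bins of high mean only, the levels were 58.8%, 57.4%, 16.1% and 56.4%.

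**Figure D3:**
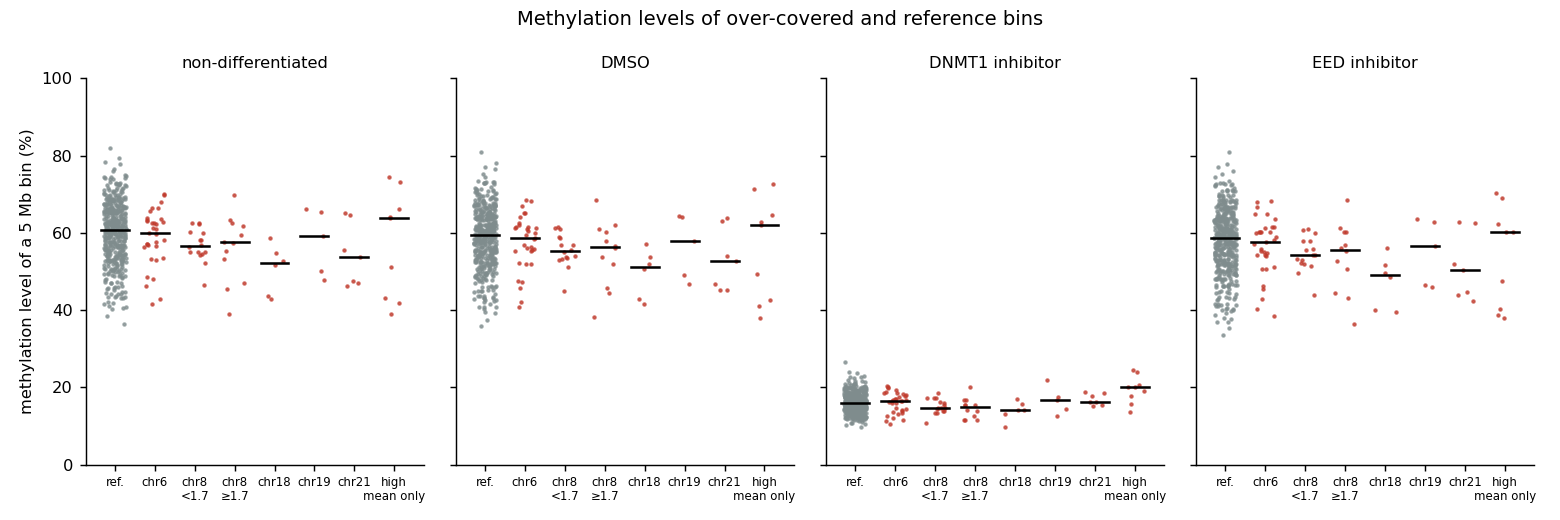
Methylation level (%) of each 5 Mb bin (points) with the median (line), for reference bins (grey) and the over-covered bins by chromosome or with a high mean only (red), in the 4 libraries. The over-covered groups lie inside the range of the reference bins, chromosome 18 has the lowest median of the groups shown in each library, and with the DNMT1 inhibitor the reference median is 16.0%.

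The 5 chromosomes differed among themselves. With DMSO the level was 59.3% on chromosome 6, 58.3% on chromosome 19 and 56.1% on chromosome 21. It was 56.3% in the 16 bins of chromosome 8 under 1.7 and 57.0% in the 12 bins of 1.7 or more. The 6 bins of chromosome 18 were lowest, at 52.3%, 51.1%, 14.5% and 49.1%. The 11 bins of chromosome 18 under the threshold were at 61.1%, 59.8%, 16.8% and 58.5%, although their coverage was nearly the same. The chosen chromosome 18 bins are poor in genes, with 29.7% of windows in a protein-coding gene against 48.0% in its other bins and 48.7% in the reference bins. Over all over-covered bins this share was 41.2%, and the mean number of shared CpGs per window was 9.06 against 9.02 in the reference. On chromosome 19 the 5 chosen bins were at 58.3% with DMSO and the 7 under the threshold at 71.1%. In a protein-coding gene lay 44.1% and 71.9% of their windows, with 12.3 and 19.8 shared CpGs per window.

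Differentiated and non-differentiated cells were close in these segments. The differentiated cells also received DMSO, so differentiation and vehicle cannot be told apart. The DMSO library was 1.39 points below the non-differentiated library in the over-covered bins and 1.405 points below it in the reference bins, and 88 of 88 over-covered bins and 427 of 427 reference bins were lower. The EED inhibitor library was 1.12 points below DMSO in the over-covered bins and 0.985 points below it in the reference bins, lower in 88 of 88 and in 416 of 427. Without the 9 bins of high mean only it was 1.01 points below DMSO. In that comparison chromosome 18 fell by 2.04 points, chromosome 21 fell by 1.74 points and chromosome 6 fell by 0.999 points. The other 11 bins of chromosome 18, whose relative coverage was likewise lower in the EED inhibitor library, fell by 1.24 points. The part of coverage in these values was not tested.

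With the DNMT1 inhibitor the level fell by 41.4 points in the over-covered bins and by 43.9 points in the reference bins, and it fell in every autosomal bin. As a share of the DMSO level, 28.5% remained in the over-covered bins and 27.5% in the reference, while 27.96% remained without the 9 bins of high mean only. By chromosome this share was 26.9% in the bins of chromosome 8 at 1.7 or more, 28.2% on chromosome 6, 28.3% on chromosome 18, 29.2% on chromosome 19 and 30.6% on chromosome 21. Windows that were highly methylated at the start kept a larger share. In over-covered windows that started at 80% or more, 32.1% of the DMSO level remained (31.1% in the reference), and in those under 20% it was 18.2% (17.5%). On chromosome 21 the share remaining was above the reference in each class of starting level, for instance 28.3% against 22.8% at 40% to 60%. In the most covered bins of chromosome 8 it was 22.3% at 40% to 60%. Classes of starting level were taken from the non-differentiated library, which enters neither value.

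The gap to the reference was also seen within classes of CpG number. Windows with 3 to 5 CpGs had a DMSO level of 45.3% in the over-covered bins and 48.0% in the reference, and windows with 11 to 20 CpGs had 65.2% and 67.5%. Windows with 21 or more CpGs made up 5.43% of the over-covered windows and 4.97% of the reference. They were at 63.1% and 65.5% with DMSO and 22.2% and 22.4% with the DNMT1 inhibitor.

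For single windows, Fisher's exact test (two-sided) set the methylated against the unmethylated reads of 2 libraries, with Benjamini-Hochberg adjustment over all windows. Windows were called where the adjusted p was under 0.01 and the levels were 25 points or more apart. These p-values, and those of promoters below, cover counting error between 2 libraries only. They treat the CpGs of a read as separate reads. Between DMSO and non-differentiated cells, 2 windows in the over-covered bins were lower and 1 was higher, where 0.000864% and 0.000288% of all windows were called. The lower window on chromosome 8 (chr8:121333001-121334000), intergenic and 278116 bp from the hyaluronan synthase gene HAS2, went from 82.9% to 52.6% over 6 CpGs (adjusted p = 0.0075, Fisher's exact test). The other lower window (chr16:33656001-33657000), in a bin of high mean only, went from 61.2% to 30.2% (adjusted p = 0.0069, Fisher's exact test), and it stood at 76.8% with the EED inhibitor. The window that was higher (chr21:8208001-8209000), over the microRNA gene MIR3648-1 on the short arm of chromosome 21, went from 41.4% to 67.8% over 15 CpGs (adjusted p = 1.1e-05, Fisher's exact test). Its local relative coverage was 1.15 with DMSO, in a bin of 1.92. These counts are a handful of windows in 348320. With the reads of each window divided by its number of CpGs, as a guard against CpGs of 1 read being counted several times, none of the 3 stayed called.

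With the DNMT1 inhibitor, 273864 windows of the over-covered bins were called lower, 78.6% of them, against 81.3% of all windows and 81.4% in the reference bins. None was called higher (0% of all windows), and none of the over-covered windows was higher even at an unadjusted p under 0.05. At that unadjusted p, 98.1% of over-covered windows were lower, against 97.5% in the reference bins. The share called lower was 81.4% on chromosome 6, 80.6% on chromosome 19, 79.0% and 78.8% in the less and the more covered bins of chromosome 8, 73.3% on chromosome 21 and 67.8% on chromosome 18. In the DMSO library 14.7% of the chromosome 18 windows were at 20% or less, against 8.67% of reference windows, and the part of this in the lower share was not tested.

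With the EED inhibitor, 59 windows of the over-covered bins were called lower than DMSO and 8 higher, where 0.0266% and 0.00592% of all windows were called. As shares these are 0.0169% and 0.0023% of the over-covered windows, both under the share over all windows. With the reads of each window divided by its number of CpGs, 0 were called in either direction, and with windows of 5 or more CpGs only, 15 and 3 were. With the over-covered reads thinned to the reference's depth, 58 were called lower and 13 higher, and at an adjusted p under 0.05 without thinning, 88 and 12. At an unadjusted p under 0.05, 9.92% of over-covered windows were lower and 3.99% higher, against 8.02% and 4.24% in the reference. Calls were uneven between the chromosomes. The 6 bins of chromosome 18 held 22 of the 59 lower windows, which is 0.0852% of their windows, and the other 11 bins of chromosome 18 held 12, or 0.029%. Chromosome 6 held 21, chromosome 21 held 7, the bins of chromosome 8 under 1.7 held 6 and chromosome 19 held 3. The 12 bins of chromosome 8 at 1.7 or more held 0 of 51697 windows in either direction. Coverage there was 67.3 reads per CpG with DMSO, against 26.4 in the reference bins. The chromosome 18 count stands where relative coverage also differs between the same libraries (1.32 and 1.04), and the part of that in the count was not tested.

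Of the 59 windows called lower, 44 held 3 or 4 CpGs, where windows of 3 to 5 CpGs make up 33.9% of all over-covered windows. In protein-coding genes lay 15 of the 59, where 41.2% of all over-covered windows and 29.7% of those of chromosome 18 do. The other 44 include windows in non-coding genes, and 3 of the 59 touched an exon. Their level in the DMSO library ran from 34.5% to 95.8% with a median of 55.6%, and with the EED inhibitor from 7.76% to 68.8% with a median of 27.98%. In the non-differentiated library the median was 46.4%, and 54 of the 59 windows were lower there than with DMSO. The DMSO level was part of what chose these windows. In an intron of PHLPP1, a phosphatase of AKT, the window chr18:62758001-62759000 went from 64.8% to 39.2%. In an intron of COL21A1, a collagen gene, the window chr6:56160001-56161000 went from 53.4% to 27.8%.

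Of the 8 windows called higher with the EED inhibitor, 3 were on chromosome 18. The window chr18:25282001-25283000 in an intron of ZNF521, a zinc finger cofactor of early haematopoietic cells, held 10 CpGs. It was at 43.8%, 32.3%, 12.5% and 58.5% (adjusted p = 1.4e-05 for the last against DMSO, Fisher's exact test). The window with most CpGs among the 8 was chr21:8390001-8391000 on the short arm of chromosome 21, where 37 CpGs were at 59.6%, 36.5%, 31.2% and 77.8%, at a local relative coverage of 0.59. In all 8 the non-differentiated library lay above DMSO, whose level was part of what chose these windows too. The windows described here were picked for their number of CpGs or the gene they lie in, after their values were seen.

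Promoters were taken as the 1000 bp before and the 500 bp after a gene's transcript start, and were tested in the same way where they held 5 or more shared CpGs. The over-covered bins held 2008 of 18118 tested promoters. Between DMSO and non-differentiated cells none of the 18118 was called in either direction (0%), and 275 of the 2008 were lower and 145 higher at an unadjusted p under 0.05. These are 13.7% and 7.22% of the over-covered promoters, against 11.1% and 5.79% of those in the reference bins. With the DNMT1 inhibitor 708 were called lower, 35.3% against 43.7% of all promoters and 43.6% in the reference bins, and none was called higher, none even at an unadjusted p under 0.05. The 708 became 421 when each promoter's reads were first divided by its CpG count, and 1105 with promoters reaching 2000 bp upstream. With the EED inhibitor none of the 2008 was called lower (0% of all promoters) or higher (0.0221% of all), and 220 and 266 passed an unadjusted p under 0.05. These are 10.96% and 13.2%, against 9.32% and 11.6% in the reference. Coverage is higher in the over-covered bins, and the part of that in these shares was not tested.

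The 5 promoters with the largest falls under the DNMT1 inhibitor started at 82.7% to 95.3% with DMSO, and a fall of that size needs a high start. APOBEC2, a muscle-enriched member of the cytidine deaminase family, was at 92.0%, 93.8%, 19.1% and 89.7% over 13 CpGs (adjusted p = 3.8e-128 for the DNMT1 inhibitor against DMSO, Fisher's exact test). FPR3, a formyl peptide receptor of myeloid cells, was at 76.9%, 82.7%, 10.9% and 75.9%. PRSS53, a serine protease gene, was at 92.2%, 93.0%, 20.6% and 91.3%, in a bin of high mean only whose local relative coverage was 0.815. ENSG00000282034, in the same bin of chromosome 16, fell by 72.8 points, and ENSG00000288671 on chromosome 19 fell by 72.7 points. The DNMT1 inhibitor library stood far below the other 3 at each.

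Of 23 genes of the erythroid list with a start in the over-covered bins, 3 were called lower with the DNMT1 inhibitor: BACH2, CA3 and ZFPM2. None was called in another comparison. RHAG, ANK1, SLC25A37, DMTN, CA1, CA2, BNIP3L and MYB were among those not called with the DNMT1 inhibitor. Each of these was at 23.6% or less with DMSO, so a fall of 25 points was not possible there. With that inhibitor 43.7% of all promoters and 35.3% of over-covered ones were called lower. The median difference over the 23 was -6.91 points, against -20.8 over all promoters. A low start limits the fall, and starting levels were not matched. BACH2, a repressor partnering with small MAF proteins, was at 47.7%, 42.2%, 10.3% and 39.7%. CA3 was at 67.92%, 60.94%, 27.98% and 64.92%, and the difference between the first and the second (adjusted p = 3.7e-05, Fisher's exact test) was under 25 points and no call. ZFPM2 was at 48.1%, 45.6%, 11.1% and 44.7%. CCND3, a D-type cyclin, was at 24.8%, 26.2%, 4.98% and 23.01%, short of a call. Some of the others start near 0. The start of MYB, which keeps erythroid progenitors dividing, was at 1.01%, 0%, 0.135% and 0.48%, where 0 of 574 reads with DMSO allows up to 0.665% (Wilson upper limit). CA1 stood at 8.79%, 8.89%, 1.75% and 10.6%. BNIP3L, the mitophagy receptor of maturing red cells, stood at 20.2%, 20.9%, 3.09% and 15.9%. The difference from DMSO was -17.8 points with the DNMT1 inhibitor and -4.95 points with the EED inhibitor (adjusted p = 0.043 for the latter, Fisher's exact test), and neither is a call.

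Of 11 chromatin genes with a start in these bins, 2 were called lower with the DNMT1 inhibitor and none in another comparison, against the same 43.7% and 35.3%. Their median difference with the DNMT1 inhibitor was -3.10 points, against -20.8 over all promoters. KAT6A, a histone acetyltransferase, was at 50.0%, 52.5%, 11.6% and 49.7%. L3MBTL3, a reader of methylated histones, was at 38.1%, 40.6%, 11.6% and 41.7%. SCML4, a Polycomb group gene, was at 32.9%, 27.8%, 12.2% and 32.3% and was not called. The start of JARID2, a partner of Polycomb repressive complex 2, was at 0.295% with DMSO and 0% with the DNMT1 inhibitor. It changed by -0.29 points with the DNMT1 inhibitor and by 0.13 points with the EED inhibitor.

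For each listed imprinted gene, the annotated transcript start with most shared CpGs was taken, which need not be the main promoter. Of 8 imprinted starts in the over-covered bins, 4 lay between 60.3% and 81.0% in every library except that of the DNMT1 inhibitor. The FAM50B start on chromosome 6 was at 63.3%, 67.9%, 35.3% and 66.2% over 61 CpGs. The start of PLAGL1, a zinc finger growth regulator, was at 67.2%, 60.3%, 31.9% and 61.9% over 68 CpGs. That of HYMAI, which overlaps the PLAGL1 window so that the 2 are not separate measurements, was at 81.0%, 73.1%, 39.7% and 74.6%. On chromosome 19 the start of the zinc finger gene ZNF331 was at 71.6%, 62.2%, 42.2% and 65.1% over 113 CpGs, at a local relative coverage of 1.22. PEG3 on chromosome 19, in a bin of 1.28 just outside the threshold, was at 62.9%, 62.0%, 38.6% and 61.5%. IMPACT on chromosome 18, in a bin of the same relative coverage, was at 26.5%, 28.1%, 5.99% and 25.6%. With DMSO its median CpG was at 0%, with quartiles of 0% and 28.4%, so this level mixes unmethylated and methylated CpGs. At FAM50B those quartiles were 62.2% and 78.9%.

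In reference bins, 15 listed imprinted starts ran from 19.7% to 92.4% with DMSO, leaving out SNURF, whose start holds the same CpGs as that of SNRPN. L3MBTL1 was at 45.9%, 48.7% and 48.2% in the non-differentiated, DMSO and EED inhibitor libraries, NDN at 46.4%, 50.2% and 46.5%, and DIRAS3 at 40.7%, 39.51% and 40.02%. NAP1L5 was at 53.0%, 47.2% and 56.9%, SNRPN at 53.9%, 60.5% and 45.2%, and INPP5F at 73.2%, 66.2% and 67.1%. PEG10 was at 74.1%, 76.4% and 73.8%. The reference starts thus reached into the 60.3% to 81.0% range of FAM50B, PLAGL1, HYMAI and ZNF331, through PEG10, INPP5F and, with DMSO, SNRPN. That range was drawn after the values were seen. All over-covered starts together ran from 7.68% to 93.2% with DMSO, which holds every reference start. INPP5F lies in a bin of chromosome 10 whose coverage rose in the EED inhibitor library. With DMSO, SGCE stood at 38.7%, GNAS and MCTS2 at 56.4%, MAGEL2 at 56.5%, ZDBF2 at 19.7%, NNAT at 88.04%, MEST at 88.6% and GRB10 at 92.4%. No test was made over the starts, which are few and share their libraries. Other over-covered starts were lower or near an extreme. GET1 on chromosome 21, added after the data were seen, was at 30.4%, 24.6%, 15.1% and 29.1%. Its median CpG with DMSO was at 0%, with quartiles of 0% and 71.2%, so its level mixes unmethylated and methylated CpGs. KCNK9 lies in the bin that straddles the last step of chromosome 8, at a local relative coverage of 0.815, and was at 41.4%, 36.4%, 6.25% and 37.8%. The starts of IGF2R, at 93.2% with DMSO, and ZFAT, at 7.68%, were not at an intermediate level, so these windows do not separate parental copies. Both were taken for their number of CpGs, and other starts of these genes were not measured here.

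**Figure D4:**
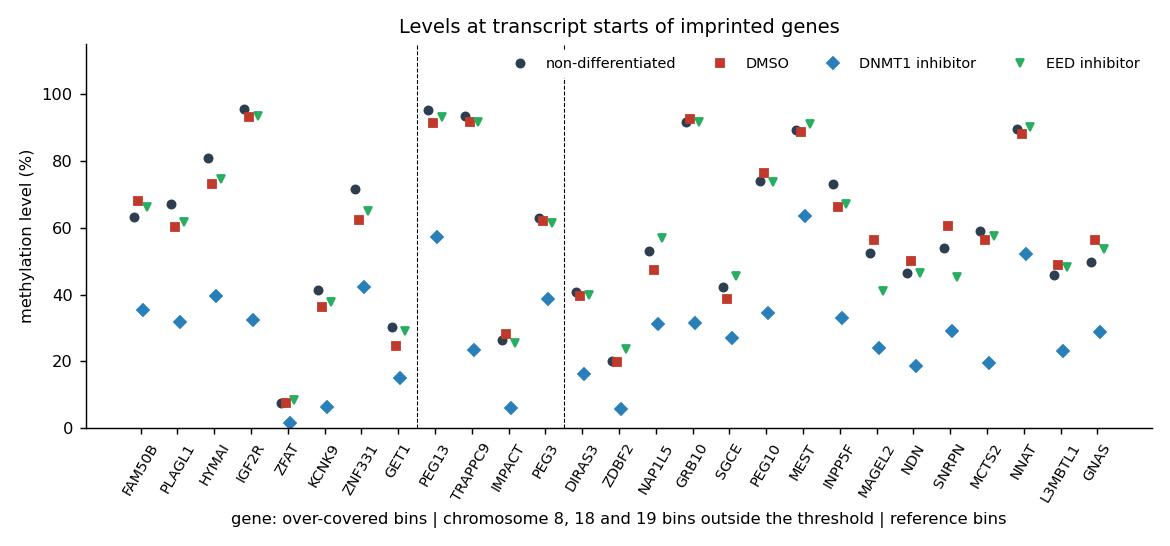
Methylation level (%) in the 4 libraries at the transcript starts of 27 listed imprinted genes, with 8 in over-covered bins, 4 in bins of chromosomes 8, 18 and 19 outside the threshold, and 15 in reference bins. FAM50B, PLAGL1, HYMAI and ZNF331 lie between 60.3% and 81.0% outside the DNMT1 inhibitor library, and GET1 between 24.6% and 30.4%.

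Single CpGs differed less between libraries in the over-covered bins than in the reference bins, also once the error of read counting was taken off. For CpGs at 20% to 80% in the library left out of the comparison, the standard deviation of single-CpG differences was taken and the part that read counting gives at each CpG's own coverage was removed. What remains is called the spread beyond counting, in points. Between the EED inhibitor and DMSO it was 10.5 over the 5083301 CpGs of the reference bins and 8.55 over the 1069773 CpGs of the over-covered bins. The median bin was at 10.4 in the reference, with quartiles of 10.2 and 10.6. It was at 8.62 on chromosome 6, 8.46 in the bins of chromosome 8 under 1.7, 8.26 on chromosome 19 and 8.29 on chromosome 21. In the bins of chromosome 8 at 1.7 or more it was 6.37. The 33 bins of chromosome 6 ran from 7.93 to 8.87, and 6 of 427 reference bins (1.41%) lay under their median. This quantity was computed after the data were seen and has no test, since CpGs and bins share their libraries.

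**Figure D5:**
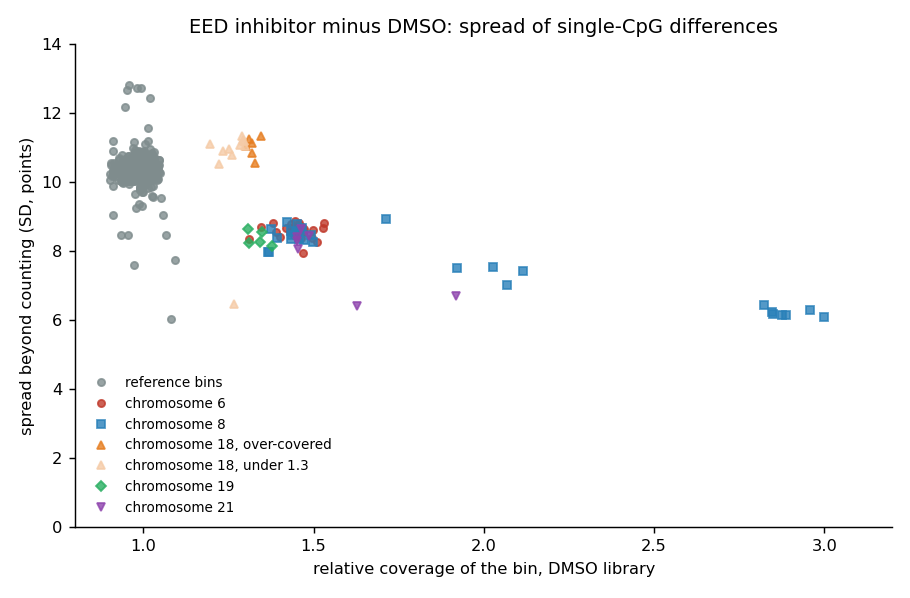
Spread beyond counting (SD in points) of single-CpG differences between the EED inhibitor and DMSO libraries, for each 5 Mb bin, against its relative coverage in the DMSO library. Reference bins centre on 10.4, chromosomes 6, 19 and 21 on 8.26 to 8.62, the most covered bins of chromosome 8 on 6.37, and chromosome 18 on 11.1.

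Along chromosome 8 the spread beyond counting followed the coverage steps. From 80 Mb on it was 10.4 in pieces under 1.2, which lie beyond the last step, 8.30 in pieces of 1.2 to 1.7 and 7.45 in pieces of 1.7 to 2.4. It was 6.22 in pieces of 2.4 to 3.5 and 5.03 in the highest pieces, which hold 1225 CpGs. Before 80 Mb it was 8.54 in pieces of 1.2 to 1.7. The 62 pieces under 1.2 before 80 Mb went against this order, at 6.62. Removing reads at random from the over-covered bins down to the depth of the reference as a whole left the value at 8.46 against 10.5, and CpGs at 30% to 70% gave 8.92 against 10.9 in the reference, both added after the data were seen. Single steps of chromosome 8 were not thinned.

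Chromosome 18 did not share this. Its 6 over-covered bins had a median of 11.09 and its other 11 bins one of 11.05, and 97.4% of reference bins lay under the first. These are the bins where relative coverage was 1.32 with DMSO and 1.04 with the EED inhibitor, and the part of that in the spread was not tested. The 7 bins of chromosome 10 with raised coverage in the EED inhibitor library had a median of 12.7. Between DMSO and the non-differentiated library the spread beyond counting was smaller, at 3.92 in the reference bins and 3.31 in the over-covered bins, and it was 2.86 in the bins of chromosome 8 at 1.7 or more. Between the EED inhibitor and the non-differentiated library it was 8.61 and 7.09. Each comparison thus gave the lower value in the over-covered bins. Of the 22 autosomes, chromosomes 6, 8, 19 and 21 were the 4 lowest in each of the 3 comparisons, at 8.04 to 8.63 between the EED inhibitor and DMSO, while the other 18 ran from 10.2 to 11.004.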

How the data were processed

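Each of the 4 tables deposited by the authors lists CpGs with a read count (coverage), per the file headers. The deposited tables also give the percent of C and of T among those reads. Both strands were merged and the smallest deposited count was 10, so sparsely covered CpGs are missing and relative coverage is compressed. The submitters' processing notes name Trim Galore 0.6.7, cutadapt 4.1, Bismark, Bowtie2 2.1.0, methylKit and hg38. Handling of duplicates is not given in the sources used here. Methylated reads were recovered by multiplying the deposited percent by the count and rounding (whole within 0.0005 of the coverage for 93076484 of 93076484 values).

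CpGs listed in all 4 tables (23269121) were used. Levels are methylated over all reads, with 95% Wilson intervals that cover counting error only. Relative coverage, windows of 1 kb and promoters (GENCODE 44) were computed with Python 3.11.15, NumPy 2.4.6 and numba 0.67.0. Windows and promoters were tested by Fisher's exact test with Benjamini-Hochberg adjustment over all of them. The window test was checked on simulated data, with 200 changed windows among 2431792. Of these, 97.5% were recovered for DMSO against non-differentiated, 97.0% for the DNMT1 inhibitor and 98.0% for the EED inhibitor. The changed windows were drawn from highly methylated ones and lowered by more than the 25 points of a call. Their reads were drawn independently, unlike CpGs that share a read. Recovery is thus not the sensitivity of the calls above. Recovery by size of change or by number of CpGs was not tested. The listed positions fell on a CpG of hg38 for 99.98% of chromosome 6. The bins, gene lists and tests were chosen with earlier results of these data known. The rule for naming took listed genes (erythroid, chromatin, imprinted) of over-covered bins that were called or at 25% to 75% with DMSO, the 5 promoters with the largest called change per direction, and called windows where these were fewer than 5. Other genes and windows named were picked after their values were seen.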

Additional observations from a re-analysis of the deposited data

How the results depend on the processing

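The extent of the over-covered bins ranged from 335 to 515 Mb over the 7 alternatives tried and stayed within 1.5 times 440 Mb. As medians over CpGs, relative coverage was 1.48, 1.44 and 1.448 in the non-differentiated, DNMT1 and EED inhibitor libraries, and without CpGs over 3 times the median, which truncates chromosome 8 by construction, it was 1.439, 1.436 and 1.439. The level gap to the reference (-2.54, -2.53, -0.102 and -2.66 points in the 4 libraries) was -3.11, -3.07, -0.485 and -3.31 unweighted, -2.51, -0.364 and -2.70 in the last 3 with the reference standardised for CpG number, -2.16, -2.19, 0.399 and -2.28 at a coverage of 20 or more, -2.05, -2.06, 0.0371 and -2.15 against reference bins of the same chromosomes, -2.29, -2.26, -0.0414 and -2.45 from 1.4 on, and -3.10, -3.04, -0.549 and -3.06 without the bins of high mean only. The difference in change (0.0143, 2.42 and -0.132 points) was, in the same order of settings, 0.0390, 2.59 and -0.237, then 0.0331, 2.15 and -0.187, then -0.0315, 2.59 and -0.0877, then -0.00625, 2.098 and -0.0863, then 0.0290, 2.22 and -0.190, then 0.0644, 2.49 and -0.0235. Leaving out each chromosome in turn gave level gaps of -3.23 to -1.71, -3.25 to -1.74, -0.293 to 0.615 and -3.46 to -1.99, and changes of -0.0265 to 0.050005, 2.17 to 3.04 and -0.248 to -0.0754. The sign of the DNMT1 inhibitor gap and of the change from non-differentiated to DMSO is thus not settled. The gap reversed without chromosome 8 (0.615) or 18 (0.00811), and the change without chromosome 6 (-0.0167), 8 (-0.0265) or 21 (-0.00655). Called windows against non-differentiated cells were 0 lower and 0 higher with reads divided by CpGs, 1 and 2 thinned, and 1 lower without the bins of high mean only. EED inhibitor windows were 0 and 0 with reads divided by CpGs, 15 and 3 with 5 or more CpGs, and 13 higher when thinned. DNMT1 inhibitor promoters numbered 421 with reads divided by CpGs and 1105 within 2000 bp. The gap in spread (-1.92) was -2.01 thinned and -1.96 at 30% to 70%. Both alternatives for the spread and leaving out the bins of high mean only were chosen after seeing the data. Where a value moved, the cause was not tested. No paired analysis was possible because each group has 1 library, so the groups compared share fewer than 2 replicate numbers. Thinned to the reference's depth, the over-covered bins gave 58 lower EED inhibitor windows against 59.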
